A study of Mus musculus with 12 samples.

Results

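The Zfp genes are mouse genes named for proteins with zinc fingers, and 215 of them were examined in bone marrow-derived macrophages (BMDMs). They were taken from the deposited count table of 12960 genes as the rows whose symbol is Zfp and a number, with or without a final a or b, and whose counts summed over the 12 libraries reached 300. Zfp36, which encodes a protein that destabilizes mRNA through a different type of finger, was left out. Of 342 such Zfp rows, 127 were under the minimum. The counts just below it were 289 for Zfp30, 292 for Zfp945 and 297 for Zfp933, and those just above it were 303 for Zfp935 and 305 for Zfp647 and Zfp11. Members were thus selected on their summed count, which gets no test.

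BMDMs were grown from the marrow of WT mice and of AMPKβ1-/- mice, which lack the β1 subunit of AMP-activated protein kinase (AMPK) in every tissue, for 7 days in medium with L929 supernatant as the source of M-CSF. Cells of both genotypes received 0.1% DMSO (vehicle) or 10 μM PF-06409577 (PF), an activator that is selective for AMPK complexes with the β1 subunit, for 6 h, and 3 libraries were sequenced for each of the 4 groups. The strain, age and sex of the mice, and whether the libraries of a group came from separate mice or cultures, are not given in the sources used here, so p values measure the spread between libraries, which may be technical. Prkab1, which encodes AMPKβ1, lay between 43.4 and 45.3 CPM in WT vehicle and between 6.05 and 8.39 CPM in AMPKβ1-/- vehicle libraries (log2 difference −2.57, SE 0.12, adjusted p = 8.85e-09). CPM are counts scaled to a common library total after TMM normalization. A gene counts as called where edgeR's quasi-likelihood test gave it a p below 0.05 after Benjamini-Hochberg adjustment across 10822 genes.

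Most Zfp proteins bind DNA through repeated C2H2 fingers, in which 2 cysteines and 2 histidines hold a zinc ion. In many of them, a Krüppel-associated box (KRAB) at the start of the protein recruits the corepressor Trim28, which brings the histone methyltransferase Setdb1 and heterochromatin to the bound site. Genes with a KRAB box multiplied in tandem along the chromosomes, and many bind remnants of retroviruses and other transposons. A pattern search of the annotated proteins found a KRAB box in 103 of the 215 members and none in 111. Zfp469 has no coding transcript in the annotation. At least 1 finger was found in 209 members, with a median of 9 and up to 36 fingers per protein, and 59 members lie on chromosome 7.

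The fingers of members that were higher in AMPKβ1-/- BMDMs had a lower median GC content than those of members that were lower. Codon use was not compared. Printed here as examples are fingers from 8 members, 1 from each. These members are those with the largest rises and falls between the genotypes that hold such fingers. In each, the finger nearest to the mean GC content of its protein's fingers was taken. Since log2 fold changes between the genotypes followed GC content, the GC content of these examples is no separate result. Each runs from the first cysteine to the last histidine, with the codons of both cysteines and both histidines in capitals, read from GENCODE M21 transcripts (GRCm38).
Zfp329: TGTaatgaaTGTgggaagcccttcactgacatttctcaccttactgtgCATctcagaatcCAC
Zfp874a: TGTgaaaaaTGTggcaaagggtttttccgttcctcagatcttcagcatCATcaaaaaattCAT
Zfp729b: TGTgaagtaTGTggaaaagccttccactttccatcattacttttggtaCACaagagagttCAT
Zfp120: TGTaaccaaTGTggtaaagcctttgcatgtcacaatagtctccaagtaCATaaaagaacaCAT
Zfp647: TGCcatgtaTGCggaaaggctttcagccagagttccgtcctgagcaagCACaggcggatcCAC
Zfp784: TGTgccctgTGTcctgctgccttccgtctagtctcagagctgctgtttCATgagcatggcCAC
Zfp358: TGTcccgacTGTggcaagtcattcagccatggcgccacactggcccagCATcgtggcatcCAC
Zfp524: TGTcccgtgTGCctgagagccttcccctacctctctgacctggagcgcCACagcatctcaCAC

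The first 4 of these belong to members that were higher in AMPKβ1-/- BMDMs and have a GC content of 36.5% to 44.4%, and the last 4 belong to members that were lower and have 57.1% to 61.9%. The finger of Zfp329 is the fifth of 12 and lies on the minus strand at chr7:12810642-12810704, in exon 2 of 2. Those of Zfp874a (chr13:67443003-67443065), Zfp729b (chr13:67593515-67593577) and Zfp120 (chr2:150117513-150117575) lie in exon 4 of 4 on the minus strand. The finger of Zfp647 (chr15:76911787-76911849) is in exon 5 of 5 and that of Zfp784 (chr7:5036300-5036362) in exon 2 of 2, both on the minus strand. The fingers of Zfp358 (chr8:3495969-3496031, exon 1 of 1) and Zfp524 (chr7:5017805-5017867, exon 3 of 3) are on the plus strand. All 8 are coding sequence. Over the 105 members called higher in AMPKβ1-/- BMDMs the median GC content of the fingers was 43.4% and that of the whole transcript 42.0%, and over the 35 called lower these were 58.2% and 58.3%.

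Members differed widely in abundance. Per kilobase of the representative transcript the mean level over the libraries ran from 0.206 to 100.7 CPM, with a median of 2.61. The 10 highest were Zfp740, Zfp385a, Zfp710, Zfp207, Zfp263, Zfp622, Zfp414, Zfp384, Zfp513 and Zfp524, and the search found a KRAB box in none of them. Zfp740 led with 100.7 CPM per kb, followed by Zfp385a with 71.2, Zfp710 with 58.8 and Zfp207 with 58.8. The genotypes overlapped in Zfp740, with 95.0 to 113.9 CPM in WT and 96.5 to 116.7 CPM in AMPKβ1-/- BMDMs (log2 fold change 0.00, SE 0.09). Zfp263 had 137.9, 149.6 and 138.8 CPM in WT and 185, 206.7 and 200.1 CPM in AMPKβ1-/- vehicle libraries (0.47, adjusted p = 0.000124), and was called with the offset too, at 0.49. The sum of all members was 0.364% to 0.419% of the counts in WT and 0.485% to 0.529% in AMPKβ1-/- libraries. Every member had counts in every library.

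Library totals ran from 8935609 to 14358180 counts, and the libraries of the genotypes stood apart in ways that touch the Zfp genes. TMM factors ran from 0.881 to 0.995 in WT and from 1.05 to 1.09 in AMPKβ1-/- libraries. Over all tested genes the deviation of a gene from its mean log2 CPM followed its GC content, with a slope per 10 percentage points of 0.36 to 0.72 in WT vehicle, −0.05 to 0.36 in WT PF, −0.36 to −0.10 in AMPKβ1-/- vehicle and −0.51 to −0.33 in AMPKβ1-/- PF libraries. The ranges of the 2 vehicle groups did not overlap, so that genotype and GC trend cannot be told apart in these libraries. A fit with the trend in GC content and length of each library entered as an offset is therefore given beside the results. All 8 macrophage markers were tested and summed to 26683 to 29681 CPM in WT vehicle and 25832 to 29310 CPM in AMPKβ1-/- vehicle libraries, with none at 0. Single markers did differ: 2 were higher and 4 lower between the genotypes, among them Cd68 (−0.72, adjusted p = 2.7e-05), and 3 were lower with PF in WT. Their part in the results on Zfp genes was not tested. No granulocyte, lymphoid or dendritic marker reached the filter on low counts, and of the fibroblast markers 1 of 5 did. Granulocyte markers summed to at most 1.22 CPM, dendritic markers to at most 1.07 CPM and fibroblast markers to at most 8.66 CPM in any library, and no lymphoid marker was a row of the table.

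**Figure D1:**
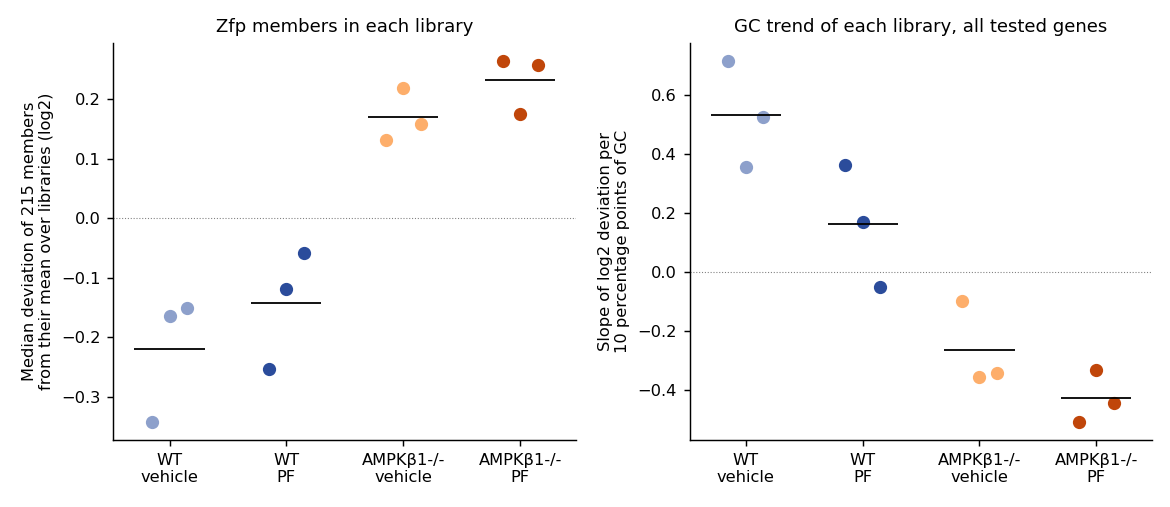
The left panel plots, for each of the 12 libraries, the median over the 215 members of the log2 deviation from each member's mean over the libraries, and the right panel the slope of that deviation with GC content over all tested genes; points are libraries and lines are means of 3. The 6 AMPKβ1-/- libraries lie between 0.13 and 0.26 on the left, above the 6 WT libraries at −0.34 to −0.06, and the slopes run in the opposite order.

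Whether the Zfp genes differed between the genotypes before any drug was asked with the vehicle libraries. In AMPKβ1-/- BMDMs 105 of 215 members (48.8%) were higher and 35 (16.3%) were lower, while 29.7% of all tested genes were higher and 30% were lower. Of the rises 46 were in members with under 75 counts over the WT vehicle libraries, which reached the minimum of 300 counts only with the other groups. Among the other 165 members 59 were higher and 35 lower, with a median log2 difference of 0.12. The falls numbered 22 without WT vehicle library 1, and 18 and 23 without AMPKβ1-/- vehicle libraries 2 and 3. The share of all tested genes in those fits was not counted. Beyond a log2 fold change of 0.8, the threshold of the study's methods, 77 members were higher and 1 was lower, against 16.1% and 1.76% of all tested genes. All 3 libraries of a genotype lay on one side of all 3 of the other for 106 members that were higher and 32 that were lower, against 30.9% and 32% of tested genes. The median log2 fold change of members was 0.40, with quartiles of −0.15 and 1.25, beside −0.03 for all tested genes.

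Members with a KRAB box made up most of the rises. Of 103 such members 69 were higher and 8 lower, with a median log2 fold change of 0.96, and of the 111 without the box 36 were higher and 27 lower, with a median of 0.01. Transcripts with the box have a median GC content of 43.6% and those without it 51.9%. Among members under 45% GC the rises came in both kinds, in 53 of 60 with the box (median 1.42) and 21 of 24 without it (median 1.56). At 45% GC or more there were 16 rises and 8 falls among 43 members with the box and 15 rises and 27 falls among 87 without it. Of tested genes outside the family, 88.9% were higher under 40% GC and 78.2% between 40% and 45%. From 45% to 50%, from 50% to 55% and at 55% or more, 37.2%, 7.86% and 1.52% of them were higher. In the same ranges 10%, 42.2% and 63.2% were lower.

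The change ran with GC content along the whole family. Of 27 members under 40% GC, 25 were higher and none lower, with a median log2 fold change of 1.75. The medians then went down through 1.26 for 57 members between 40% and 45%, 0.46 for 47 between 45% and 50% and −0.07 for 39 between 50% and 55%. Of the 45 members at 55% or more, 27 were lower and none higher, with a median of −0.33. Spearman's rho between log2 fold change and GC content was −0.90 across the 215 members and −0.76 across 10781 tested genes, as a description without a p value, since the genes share the libraries. Tested genes outside the family had medians of 1.44, 0.85, 0.20, −0.22 and −0.39 in the same GC ranges. Under 40% GC 88.9% of these other genes were higher and 0% lower, and at 55% or more 63.2% were lower and 1.52% higher. The counts of members in these 2 ranges are thus near the shares of other genes of like GC content.

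**Figure D2:**
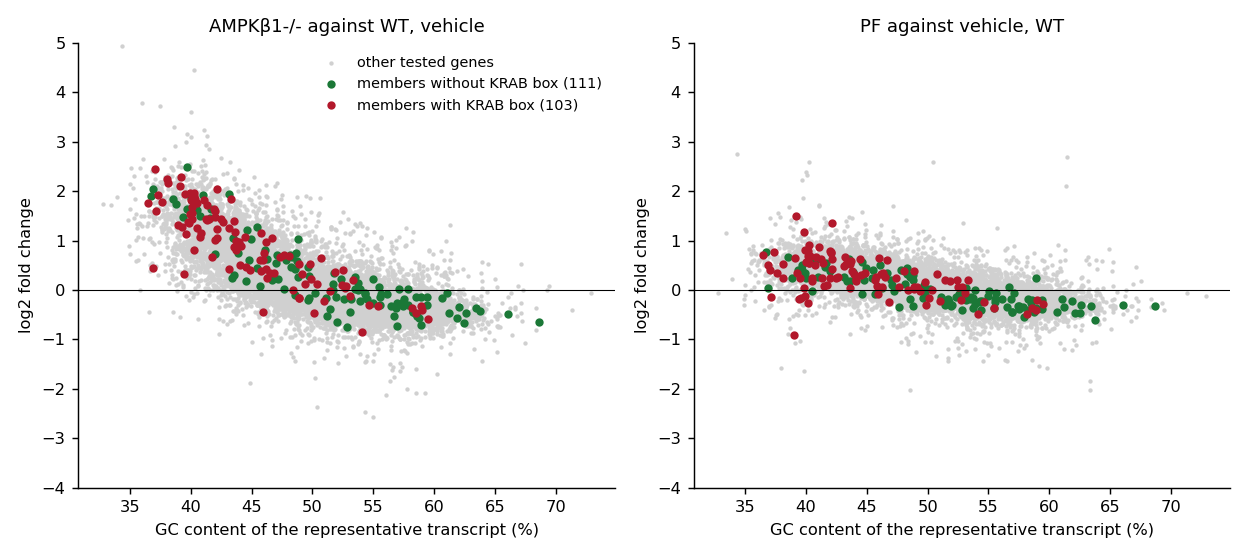
Each point is a gene, with the GC content of its representative transcript (%) on the x axis and its log2 fold change on the y axis, for AMPKβ1-/- against WT vehicle (left) and PF against vehicle in WT (right). Members with a KRAB box (red) and without one (green) run from high on the left of each panel to low on the right along the cloud of other tested genes (grey), of which 3 lie outside the left axis.

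With the trend in GC content and length removed, 45 members were higher and 20 lower in AMPKβ1-/- BMDMs, where 14.5% and 20.6% of all tested genes were, and the median was 0.17 beside −0.02 for all tested genes. Of the 105 members called higher without the offset 37 were among the 45, and of the 35 called lower 10 were among the 20. Beyond 0.8, 9 were higher and 3 lower, and the share of all tested genes beyond 0.8 in this fit was not counted. Members with the box then had 21 rises and 5 falls (median 0.27) and those without it 23 rises and 15 falls (median 0.10). With library size alone in place of TMM the median of all tested genes moved by 0.21, to 0.18, and that of the members was 0.61. In that fit 124 members were higher and 13 lower. The share of all tested genes called in it was not counted, so these are no result about the family.

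**Figure D3:**
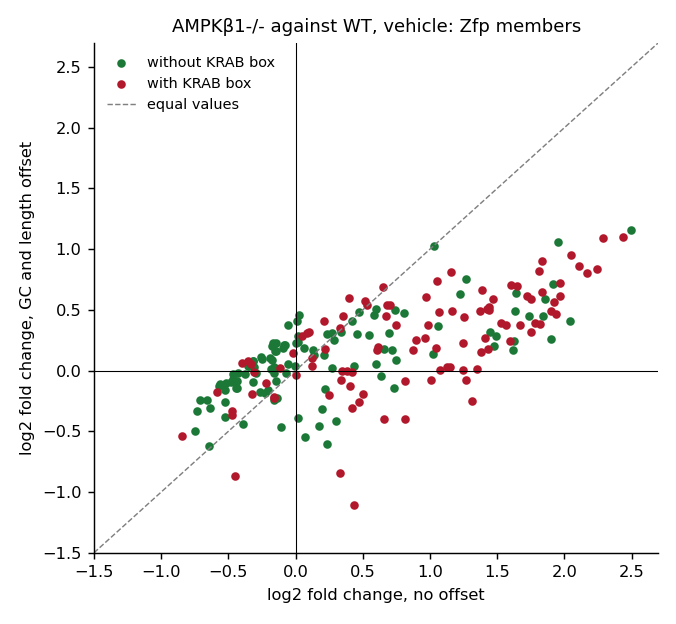
Each point is a Zfp member, with the genotype difference (log2, AMPKβ1-/- over WT, vehicle) without an offset on the x axis and with the GC and length offset of each library on the y axis. Most rises lie below the dashed line of equal values: the largest value is 2.49 on the x axis and 1.15 on the y axis.

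Members were also split by the number of fingers, with no test between the ranges. With up to 4 fingers 14 of 42 members were higher (median 0.01), with 5 to 9 fingers 31 of 70 (0.34), with 10 to 14 fingers 36 of 62 (0.63) and with 15 or more 24 of 40 (0.89), and the median GC content went from 50.7% to 43.7%. Their falls numbered 10, 14, 8 and 3. With the offset the rises numbered 8, 15, 15 and 6.

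Members were next split by their summed counts. Of the 93 members under 1000 counts 61 were higher and 4 lower (median 1.13, median GC 42.2%), and of the 122 at 1000 counts or more 44 were higher and 31 lower (median 0.06, median GC 51.9%). In WT vehicle 50 members had under 75 counts over the 3 libraries, and in AMPKβ1-/- vehicle 2 had. The calls among the 50, of which 46 were rises, stay in the counts of this text as a description, and no support is drawn from them.

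The largest rises were those of Zfp329, Zfp935, Zfp874a, Zfp729b and Zfp120. Each had under 75 counts over the WT vehicle libraries, so their values and calls are given as a description. Zfp874a had 0.855, 1.66 and 0.896 CPM in WT vehicle and 5.01, 5.93 and 6.05 CPM in AMPKβ1-/- vehicle libraries (log2 fold change 2.29, SE 0.27, adjusted p = 2.96e-05). It had the smallest p of any member, and its call held with the offset at a log2 fold change of 1.09 (adjusted p = 0.00153). Zfp120 had 1.07, 1.57 and 0.896 CPM in WT and 4.92, 6 and 5.09 CPM in AMPKβ1-/- vehicle libraries (2.17, SE 0.29, adjusted p = 6.25e-05), and 0.80 with the offset (adjusted p = 0.0168). The groups were separate for both genes, by more than the spread within either.

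Zfp329 had 0.214, 0.554 and 1.09 CPM in WT and 3.83, 4.63 and 2.02 CPM in AMPKβ1-/- vehicle libraries (log2 fold change 2.49, SE 0.49, adjusted p = 0.000722). Zfp729b, with 30 fingers, had 0.535, 0.738 and 0.299 CPM in WT and 2.37, 2.93 and 2.23 CPM in AMPKβ1-/- libraries (2.24, SE 0.35, adjusted p = 0.000142). With the offset these came to 1.15 (adjusted p = 0.0599) and 0.83 (adjusted p = 0.112), no longer calls. The WT libraries of both lie below the AMPKβ1-/- ones, at levels near 1 CPM or less that rest on few counts. Zfp935 went from 2 to 10 counts in WT to 32 to 38 counts in AMPKβ1-/- vehicle libraries (2.44, SE 0.38, adjusted p = 0.000142), and with the offset it was at 1.1 (adjusted p = 0.0549), no call. Its annotated transcript shares 99.2% of its 50-base windows with Gm49359, so that these reads could be split between 2 genes.

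The largest falls were those of Zfp647, Zfp784, Zfp358, Zfp524 and Zfp385a, and they were smaller than the rises. Zfp385a, which encodes a partner of p53 that also binds RNA, had 244.9, 203.9 and 221 CPM in WT and 162.6, 123.3 and 137.6 CPM in AMPKβ1-/- vehicle libraries (log2 fold change −0.66, SE 0.10, adjusted p = 0.000106). Zfp358 had 63.6, 45.1 and 52.7 CPM in WT and 34.9, 29.1 and 33.2 CPM in AMPKβ1-/- libraries (−0.73, SE 0.12, adjusted p = 0.000193). Both kept their calls with the offset, at −0.25 (adjusted p = 0.00744) and −0.34 (adjusted p = 0.00826). Zfp524 went from 43.3, 31.6 and 34.4 CPM to 21.4, 22.3 and 23.1 CPM (−0.71, adjusted p = 0.000194) and Zfp784 from 12.3, 8.68 and 8.46 CPM to 6.47, 5.48 and 5.51 CPM (−0.75, adjusted p = 0.00226). Zfp647 was the 1 member lower beyond 0.8, with 3.42, 2.40 and 2.59 CPM in WT and 1.64, 1.37 and 1.7 CPM in AMPKβ1-/- libraries (−0.84, SE 0.23, adjusted p = 0.00611), and with the offset its adjusted p was 0.0843.

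**Figure D4:**
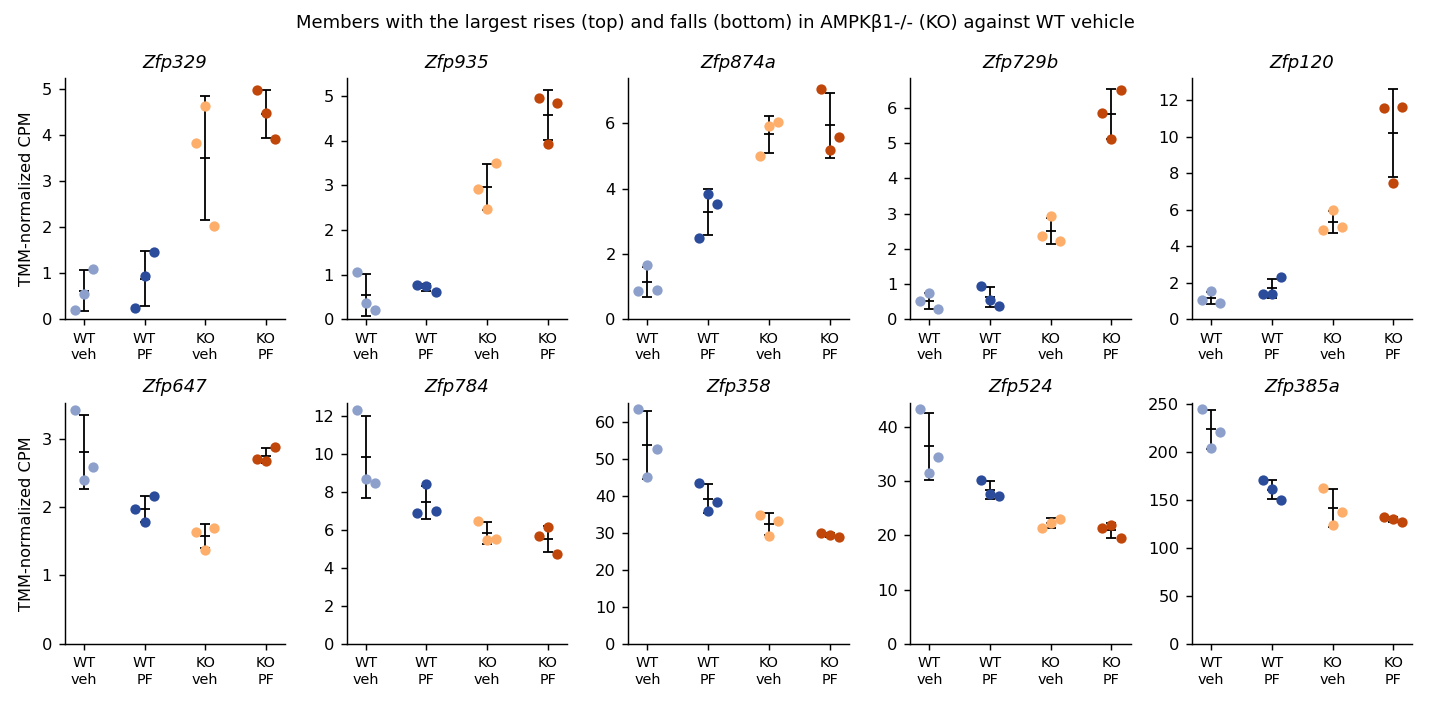
Normalized level (TMM CPM, linear axes from 0) of the 5 members with the largest rises (top) and the 5 with the largest falls (bottom) between AMPKβ1-/- and WT vehicle; points are libraries and bars are mean ± SD of 3. In the top row all AMPKβ1-/- libraries lie above all WT vehicle libraries, and in the bottom row the AMPKβ1-/- vehicle libraries lie below them.

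Neighbouring members were joined into chains. When members with starts at most 500 kb apart were joined, 110 members fell into 22 chains of at least 3, and in 15 chains more members were higher than lower in AMPKβ1-/- BMDMs, in 4 chains more were lower, and 4 chains held calls in both directions. The chain of 10 members with the box from Zfp429 to Zfp65 (chr13:67387905-67729173), which holds Zfp874a and Zfp729b, had 9 rises, a median log2 fold change of 1.44 and a median GC content of 39.8%. All 6 members of the chain from Zfp60 to Zfp780b (chr7:27731389-27979171) rose, by 1.27 to 1.72, and all 5 of the chain from Zfp560 to Zfp846 (chr9:20345136-20605409) did, by 0.82 to 1.90. With the offset the medians of these 3 chains were 0.49, 0.55 and 0.01, with 2, 3 and 0 calls.

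Falls outnumbered rises in both of the following chains, which have more GC. The 6 members from Zfp628 to Zfp580 (chr7:4915217-5053723) include Zfp524 and Zfp784, and no KRAB box was found in them. They had 4 falls and no rise, with a median log2 fold change of −0.45 and a median GC content of 61.2%. The 10 members from Zfp553 to Zfp646 (chr7:127233061-127885996) had 5 falls and no rise (median −0.31, 53.8% GC). With the offset the medians were −0.13 and −0.02. Chains on 1 chromosome thus had medians on both sides of 0, as those of chromosome 7 show.

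Members with known roles were followed as lists. The 4 members among the repressors of retroelements and imprinted loci were all higher in AMPKβ1-/- BMDMs, with a median log2 fold change of 1.49, and all 4 remained calls with the offset, with a median of 0.76. Of the same list, Zfp932 has fewer than 300 counts and is no member: it rose by 1.71 (adjusted p = 0.00155) and was at 0.52 with the offset (adjusted p = 0.394). Zfp708, also under the minimum, was not tested. Zfp445, which guards imprinted loci, had 5.77, 10.2 and 7.17 CPM in WT and 26.5, 30.6 and 25.7 CPM in AMPKβ1-/- vehicle libraries (1.84, SE 0.24, adjusted p = 8.5e-05). Zfp638, which silences unintegrated retroviral DNA, had 2.03, 5.26 and 2.19 CPM and 9.75, 11.5 and 15.5 CPM (1.92, SE 0.30, adjusted p = 0.000212). The libraries of the genotypes did not overlap for either gene. Zfp809, which silences murine leukemia virus, rose by 1.15 (SE 0.31, adjusted p = 0.00537) from 2.76 ± 1.10 to 6.22 ± 0.57 CPM (SD, n = 3). Zfp568, a repressor of a placental Igf2 transcript, rose by 0.65 (SE 0.18, adjusted p = 0.00657) from 7.68 ± 0.64 to 12 ± 0.65 CPM (SD, n = 3). The GC content of its transcript is 50.7%.

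The corepressors that KRAB proteins use are no Zfp genes and did not move as 1 group. Of the 27 measured genes of the list 12 were higher and 4 lower in AMPKβ1-/- BMDMs, with a median log2 fold change of 0.10. Trim28 fell by 0.49 (SE 0.09, adjusted p = 0.000431), from 289.1 ± 21 to 206.4 ± 21 CPM (SD, n = 3), and with the offset its log2 fold change was −0.11 (adjusted p = 0.12). Setdb1 was at −0.04 (SE 0.08, adjusted p = 0.661). Of the HUSH complex, which silences integrated retroelements, Tasor rose by 2.28 (SE 0.25, adjusted p = 1.79e-05), Mphosph8 by 1.54 (SE 0.19, adjusted p = 3.52e-05) and Pphln1 by 0.68 (SE 0.15, adjusted p = 0.00138). With the offset the first 2 remained calls at 0.80 and 0.72, and Pphln1 was at −0.01 (adjusted p = 0.958).

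Of the 8 members that act on RNA and translation 4 were higher and 2 lower. Zfp207, which assists spindle assembly, had 64.8, 76.4 and 62.2 CPM in WT and 83.7, 110.1 and 115.2 CPM in AMPKβ1-/- vehicle libraries (log2 fold change 0.60, SE 0.11, adjusted p = 0.000484). Zfp622, which matures the large ribosomal subunit, had 122.8, 110.4 and 97.7 CPM and 79.4, 73.4 and 77.7 CPM (−0.52, SE 0.09, adjusted p = 0.000277). Both genes were also called with the offset, at 0.51 and −0.38. The others called were Zfp326 (1.06), Zfp106 (0.71), Zfp830 (0.42) and Zfp385a, while Zfp598, an E3 ligase that marks collided ribosomes (−0.15, adjusted p = 0.16), and Zfp346, which binds double-stranded RNA (−0.26, adjusted p = 0.0513), did not pass the test. With the offset Zfp326 (0.37, adjusted p = 0.106) and Zfp106 (0.17, adjusted p = 0.0504) were no calls, Zfp346 was at 0.11 and Zfp598 was called in the other direction (0.23, adjusted p = 0.0115). Of the other ligases, Zfp91 had 64.5, 71.2 and 59.0 CPM in WT and 95.1, 112.9 and 117.8 CPM in AMPKβ1-/- libraries (0.74, adjusted p = 0.000164). The SUMO ligase Zfp451 had 6.20, 9.14 and 6.87 CPM and 16.4, 18.5 and 19 CPM (1.27, adjusted p = 9.18e-05).

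Of the 19 members among the regulators of transcription with few or no KRAB relatives, 7 were higher and 5 lower, with a median of −0.09. Zfp462, of the same list but under 300 counts, had a log2 difference of 0.59 (adjusted p = 0.351). Zfp281, a regulator of pluripotency, had 1.71, 4.52 and 3.28 CPM in WT and 9.85, 12.3 and 15.4 CPM in AMPKβ1-/- vehicle libraries (log2 fold change 1.95, SE 0.28, adjusted p = 0.000102), and 1.06 with the offset (adjusted p = 0.00079). The other rises were Zfp292 (1.63), Zfp148 (1.62), Zfp644 (1.45), Zfp652 (0.64), Zfp143 (0.60) and Zfp217 (0.34). Zfp292 had under 75 counts over the WT vehicle libraries (14, 34 and 10), so its rise is given as a description. The falls were Zfp219 (−0.35), Zfp64 (−0.32), Zfp687 (−0.32), Zfp467 (−0.31) and Zfp335 (−0.29). With the offset none of these falls and, of the rises, Zfp281 and Zfp217 (0.32) were calls, while Zfp219, Zfp64, Zfp467 and Zfp652 changed sign. The offset further called Zfp384 (0.18) and Zfp703 (0.22) higher and Zfp592 (−0.22) lower. Among families of other zinc finger genes with at least 300 counts, 14 of 34 Zbtb genes were higher and 5 lower (median 0.14), 6 of 17 Zkscan and Zscan genes were higher and 4 lower (0.08) and 7 of 11 Klf genes were higher and 2 lower (0.42). The median GC content was 51.1%, 50.6% and 47.5% in these families and 47.7% in the Zfp members, and no difference between families was tested.

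The promoters of members, taken from RefSeq for GRCm38 as 250 bases before to 50 bases after the start, were found for 178 members. The YY1 motif CCATNTT, on either strand, was in 23.6% of them and in 15.7% of the promoters of tested genes. The ETS motif CCGGAAG was in 23% and 20.2%, the NRF1 motif GCATGCGC in 5.62% and 5.98%, and the SP/KLF motif GGGCGG in 51.7% and 66.2%. Among members higher in AMPKβ1-/- BMDMs the YY1 motif was in 28 of 93 and among those lower in 6 of 31. The median GC content of these promoters was 53.3% and 63%.

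The response of WT BMDMs to PF was small in most members. With PF 10 members (4.65%) were higher and 17 (7.91%) lower, where 6.99% and 8.95% of all tested genes were, so the share called was no greater than the background. Beyond 0.8, 3 members were higher and none lower (1.16% and 0.37% of tested genes), and the libraries did not overlap for 24 that were higher and 37 that were lower (14.2% and 18.1%). The median log2 fold change was 0.07, beside 0.00 for all tested genes. Members with a KRAB box had 7 rises and 4 falls (median 0.25) and those without it 3 rises and 13 falls (median −0.15). As between the genotypes, values followed GC content, with a rho of −0.75 across members and −0.70 across tested genes. With the GC and length offset 2 members were higher and 3 lower, where 3.13% and 3.83% of all tested genes were, and the median was −0.04. Single libraries weighed heavily on these counts, and the calls of all tested genes in the fits without 1 library were not counted. Leaving out WT PF library 1 gave 31 rises and 31 falls, and leaving out WT PF library 3 gave 1 and 3. Falls numbered 7, 5 and 7 without WT vehicle library 1, WT vehicle library 3 and WT PF library 2. Rises also numbered 2 to 6 without any 1 of WT PF library 2, WT vehicle libraries 1 and 3, AMPKβ1-/- vehicle libraries 2 and 3 and the AMPKβ1-/- PF libraries.

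Zfp874a rose most with PF. It had 0.855, 1.66 and 0.896 CPM in WT vehicle and 2.49, 3.84 and 3.54 CPM in WT PF libraries (log2 fold change 1.5, SE 0.29, adjusted p = 0.0057), and 1.07 with the offset (adjusted p = 0.0121). In AMPKβ1-/- BMDMs Zfp874a had 5.01, 5.93 and 6.05 CPM with vehicle and 7.06, 5.18 and 5.58 CPM with PF, which overlap (0.07, SE 0.21, adjusted p = 0.988). Over the other 19 fits its adjusted p in WT was between 0.00064 and 0.0323. The difference between the responses was 1.44 (SE 0.36, adjusted p = 0.0949), short of the threshold, and with the offset it was 1.37 (adjusted p = 0.0239). Zfp874a shares 15.8% of its 50-base windows with its neighbour Zfp874b, so part of its reads may be assigned to either gene.

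The other members higher with PF beyond 0.8 were Zfp267 and Zfp983, both with a KRAB box. Zfp267 had 0.748, 1.29 and 1.39 CPM with vehicle and 2.14, 3.74 and 3 CPM with PF in WT (log2 fold change 1.34, SE 0.38, adjusted p = 0.0281). Zfp983 had 1.5, 0.923 and 0.498 CPM with vehicle and 1.97, 2.25 and 2.31 CPM with PF (1.17, SE 0.36, adjusted p = 0.0386). Vehicle and PF libraries were separate for both, and neither was a call with the offset (adjusted p = 0.0773 and 0.255). Zfp655 rose by 0.67 and Zfp287 by 0.61, both with a KRAB box, and the remaining 5, Zfp207 among them, by 0.31 to 0.58. The study names Zfp322a among its most differentially expressed genes, as one of several involved in regulation of transcription. Zfp322a had 1.28, 1.02 and 1.19 CPM with vehicle and 1.54, 1.22 and 2.69 CPM with PF in WT, and these overlap. It was not among the members called with PF in WT. Over the other 19 fits its log2 fold change with PF in WT was between 0.24 and 0.88. Its adjusted p in those fits was between 0.115 and 0.714, so the study's result for Zfp322a was not reproduced in this comparison. In AMPKβ1-/- vehicle libraries Zfp322a had 3.83, 4.17 and 4.56 CPM (1.84 against WT vehicle, SE 0.30, adjusted p = 0.000188), and 0.45 with the offset (adjusted p = 0.221). It had under 75 counts over the WT vehicle libraries, so this call is given as a description.

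The falls with PF in WT were led by Zfp467, a factor that turns marrow stromal cells toward fat cells. It had 35.3, 29.1 and 36.9 CPM with vehicle and 22.7, 23.3 and 22.9 CPM with PF (log2 fold change −0.55, SE 0.11, adjusted p = 0.00778). Zfp385a had 244.9, 203.9 and 221 CPM with vehicle and 170.5, 161.6 and 149.9 CPM with PF (−0.47, SE 0.10, adjusted p = 0.00762). Zfp219, a repressor and partner of Sox9, had 57.7, 51.0 and 66.5 CPM with vehicle and 39.96, 46.2 and 41.2 CPM with PF (−0.46, SE 0.12, adjusted p = 0.0206). All PF libraries of these genes lie below all vehicle libraries. With the offset Zfp467 was at −0.30 (adjusted p = 0.0593), Zfp385a at −0.19 (adjusted p = 0.0894) and Zfp219 at −0.17 (adjusted p = 0.316), no longer calls. Zfp358 fell by 0.45 and Zfp707, which has a KRAB box, by 0.49. Of the 19 regulators with few or no KRAB relatives 6 fell and none rose: Zfp467, Zfp219, Zfp703 (−0.44), Zfp395 (−0.41), Zfp335 (−0.38) and Zfp592 (−0.33). Among the abundant members Zfp710 (−0.37) and Zfp414 (−0.44) also fell. With the offset Zfp395 and Zfp414 kept their calls, at −0.23 (adjusted p = 0.0366) and −0.27 (adjusted p = 0.047).

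In AMPKβ1-/- BMDMs no member was called with PF, in either direction, by edgeR's quasi-likelihood test, where 0.0554% of tested genes were higher and 0% lower. At an unadjusted p below 0.05 there were 25 members higher and none lower, against 4.29% and 0.693% of tested genes, and their libraries did not overlap for 36 higher and 1 lower (8.21% and 6.28%). DESeq2 called 5 members higher and the fit to the 6 AMPKβ1-/- libraries alone 6, with none lower. The shares of all tested genes called by these fits were not counted, so the shares above do not apply to them. Of the 25 members 17 have a KRAB box. The median over all members was 0.06, beside 0.00 for tested genes, and the rho with GC content was −0.68.

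Zfp992 had the smallest p in this comparison. It had 2.01, 1.5 and 2.44 CPM with vehicle and 5.84, 4.08 and 5.11 CPM with PF (log2 fold change 1.37, SE 0.26, adjusted p = 0.0778), in separate ranges. Zfp518a (1.39), Zfp984 (1.24), Zfp729b (1.19) and Zfp62 (0.96), which were chosen after their values were seen, had adjusted p values of 0.0778 to 0.0983. Zfp638 was at 9.75, 11.5 and 15.5 CPM with vehicle and 31.4, 21.3 and 26.5 CPM with PF (1.12, adjusted p = 0.128), which was no call. With the offset the log2 fold change of Zfp992 was 0.81 (adjusted p = 0.489), and that of Zfp729b went from 1.19 to 0.72. A row under the minimum, Zfp677, chosen after its values were seen, was called in AMPKβ1-/- BMDMs, with 10, 8 and 8 counts with vehicle and 34, 34 and 39 counts with PF (2.05, SE 0.32, adjusted p = 0.0339). With the offset it was at 1.6 (adjusted p = 0.116), and over the other fits its adjusted p was up to 0.361.

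The difference between the PF responses of the genotypes (WT minus AMPKβ1-/-) passed the threshold in no member by edgeR's quasi-likelihood test, where 0.176% of tested genes were above and 0.24% below 0. At an unadjusted p below 0.05 there were 9 members above and 19 below 0, against 6.35% and 7.97% of tested genes. By DESeq2 none was above and 1 below, and the share of all tested genes was not counted for that fit. Zfp647 had the smallest p (−1.32, SE 0.32, adjusted p = 0.0871): it had 3.42, 2.40 and 2.59 CPM with vehicle and 1.97, 1.78 and 2.15 CPM with PF in WT, and 1.64, 1.37 and 1.7 CPM with vehicle and 2.7, 2.67 and 2.88 CPM with PF in AMPKβ1-/- BMDMs. Its libraries were separate in each genotype and moved down in WT and up in AMPKβ1-/- BMDMs, at 16 to 34 counts per library.

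**Figure D5:**
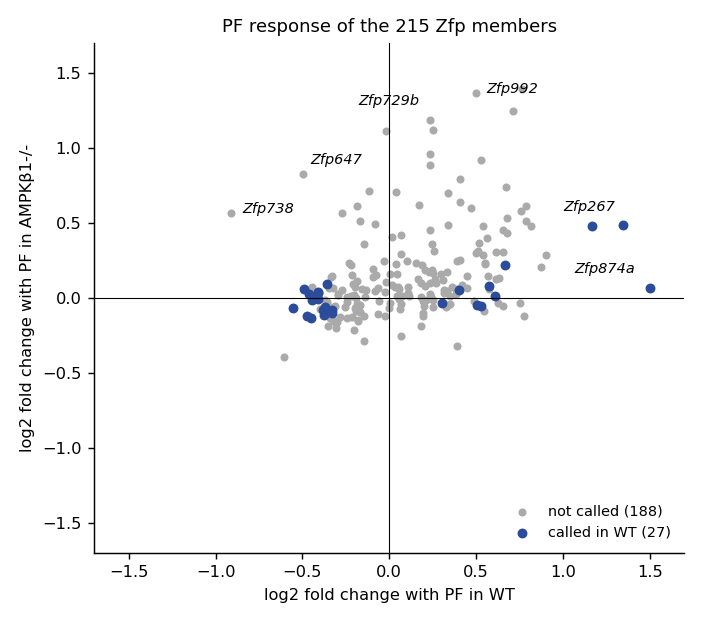
Each point is 1 of the 215 members, with its log2 fold change with PF in WT on the x axis and in AMPKβ1-/- BMDMs on the y axis; blue points are the 27 members called in WT. Blue points spread from −0.55 to 1.5 on the x axis and lie between −0.14 and 0.48 on the y axis, while Zfp992 and Zfp729b lie high on the y axis without a call.

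Across the 4 groups the commonest order of mean levels was WT vehicle, WT PF, AMPKβ1-/- vehicle and AMPKβ1-/- PF from low to high, in 92 members (42.8%) and in 23.3% of tested genes. The reverse order was found in 19 members (8.84%) and in 21.2% of tested genes. These orders take no account of error: of neighbouring groups, the vehicle and PF libraries of WT were separate in 24 and 37 members in the 2 directions, and those of AMPKβ1-/- BMDMs in 36 and 1.

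Many Zfp genes resemble each other, and Salmon divides reads between like transcripts. Of the 215 members 109 share no 50-base window of their representative transcript with another gene's transcripts and 152 share less than 1%. Those 152 had 68 rises and 29 falls between the genotypes (median 0.28), and the 63 that share more had 37 rises and 6 falls (median 0.74), with a median GC content of 49.0% and 43.7%. At least 50% was shared with 1 other gene by Zfp935, Zfp82 (94.4% with Gm26920), Zfp966 (66.6% with Zfp968), Zfp58 (50.2% with Gm26965) and Zfp59 (50.1% with Gm7452), so the values of these genes are uncertain. Their log2 fold changes between the genotypes apart from Zfp935 were 0.53, 1.92, 1.43 and 1.39.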

How the data were processed

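RNA from mouse BMDMs was sequenced in 12 libraries, 3 for each of 4 groups, and groups were read from the sample labels and the names of the count columns. The authors trimmed paired-end reads of about 50 bases with Trim Galore, inspected them with MultiQC and ran Salmon. The deposited table holds its estimated count for each gene as a whole number, without normalization. The build and the Salmon version are not given in the sources used here.

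R 4.3.3 and edgeR 4.0.16 were used, with TMM, filterByExpr by group (10822 genes and all 215 members passed) and a robust quasi-likelihood fit of 4 group means to the 12 libraries. P values were adjusted over all tested genes. Each SE is the absolute log2 fold change over the root of F, an approximation. A count of 0 would allow up to 3 counts, for counting error only. GENCODE M21 (GRCm38) gave GC content, length, coordinates and proteins from the transcript with the longest coding sequence: the symbol found 12703 genes and an older symbol 169, and 88 had no match. Fingers were C, 2 to 4 residues, C, 12 residues, H, 3 to 5 residues, H, and KRAB boxes came from a weight matrix of 38 residues. The offset took natural splines with 5 degrees of freedom. Scripts were tested on simulated data.

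Among calls with separate libraries the 5 members that rose most and the 5 that fell most were named per comparison, as were the smallest p, the 10 highest in CPM per kb, those beside the minimum, the role lists, Zfp322a, Zfp874a and near-identical genes. Members, lists and rules were chosen with earlier results of these data known. Alternatives were DESeq2 1.42.0, its size factors, library size alone, no filter, fewer groups in the fit, the offset, a replicate block, each library left out and a minimum of 100 or 1000 counts.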

Additional observations from a re-analysis of the deposited data

How the results depend on the processing

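With the GC and length offset 2 members were higher and 3 lower with PF in WT (1 and 1 beyond 0.8), 1 lay above and 1 below 0 in the difference of PF responses, and 45 were higher and 20 lower between the genotypes (9 and 3 beyond 0.8). Library size alone gave 10 falls with PF in WT, and 13 falls between the genotypes with 0 beyond 0.8. A fit to the libraries of the contrast alone gave 3 rises and 3 falls with PF in WT and 6 rises in AMPKβ1-/- BMDMs, where DESeq2 gave 5; DESeq2 also put 1 member below 0 in the difference of responses. With a minimum of 100 counts there were 5 rises beyond 0.8 with PF in WT and 1 rise (Zfp677) in AMPKβ1-/- BMDMs. With a minimum of 1000 counts there were 6 rises with PF in WT (0 beyond 0.8) and 44 between the genotypes (21 beyond 0.8, with 0 falls beyond it). Leaving out each library in turn gave 1 to 31 rises (1 to 12 beyond 0.8) and 3 to 31 falls (0 to 1 beyond 0.8) with PF in WT, 0 to 4 rises with PF in AMPKβ1-/- BMDMs, 0 to 1 members above 0 in the difference of responses, and 93 to 108 rises and 18 to 38 falls (0 to 4 beyond 0.8) between the genotypes. The 4 rises in AMPKβ1-/- BMDMs came without WT PF library 3, and 1 and 2 came without WT vehicle libraries 1 and 2. Among named genes called between the genotypes the sign turned with the offset in Zfp467 (0.032), Zfp219 (0.041), Zfp945 (−0.71), Zfp64 (0.077), Zfp652 (−0.045) and Pphln1 (−0.00799), and among those of the role lists without a call in Zfp598 (0.23), Zfp346 (0.11), Zfp384 (0.18), Zfp395 (0.032) and Zfp703 (0.22). With library size alone it turned in Zfp598 (0.063), Zfp384 (0.12), Zfp395 (0.049), Zfp592 (0.069) and Zfp703 (0.045). With a library left out Zfp740 ran from −0.091 to 0.077, and Zfp874a with PF in AMPKβ1-/- BMDMs from −0.076 to 0.16 (−0.31 with the offset). Setdb1 came to 0.17 with library size alone, and between −0.086 and 0.0049 with a library left out. Of 51 named genes called between the genotypes 42 were called in every fit without 1 library and 25 with the offset, and of 27 called with PF in WT these were 4 and 3. Apart from the construction of each alternative the cause was not tested. Among the alternative fits, the share of all tested genes called was counted only for the offset, at adjusted p alone. The other counts describe the fits and are no result about the members. Libraries of equal number share only that number: correlations of their deviations ran from −0.17 to 0.32, and a replicate block gave 8 rises and 18 falls with PF in WT, 104 and 33 between the genotypes and none elsewhere.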
